A study of Mus musculus with 3 samples.

Results

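The 5 loci described here belong to the retinoic acid pathway: 4 genes for retinoic acid receptors and their partners, Rarb, Rara, Rxra and Rxrg, and Cyp26b1, which encodes an enzyme that degrades retinoic acid. Each locus was a fixed window of the mouse genome (build mm9), and every peak overlapping a window was taken: 6 of the 8075 peaks of the retinoic acid receptor beta (RARβ) and 23 of the 35971 peaks of trimethylated lysine 4 of histone H3 (H3K4me3). The loci were chosen by the positions and tags of the RARβ and H3K4me3 peaks already called in them, so ranks and counts below are descriptions and no test was run on them. The peaks come from chromatin immunoprecipitation followed by sequencing (ChIP-seq) of wild-type male mice of the strain C57BL/6J x 129SvEms/j, using the caudate putamen, which forms the dorsal striatum. One library was made with an antibody to RARβ and another with an antibody to H3K4me3, so no value has a replicate error. Both share genotype, sex, strain and region. A peak list of the anti-GFP library and tissue of RARβ-null mice were not analysed here. Fold enrichments and scores are relative to a control library whose antibody the file headers do not name. The age and number of mice behind each library are not given in the sources used here. The caudate putamen holds several cell types, and the fraction of cells in which a site was bound or marked cannot be read from these libraries.

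Retinoic acid acts through nuclear receptors that bind DNA as pairs of a retinoic acid receptor (RAR, here RARα from Rara and RARβ from Rarb) and a retinoid X receptor (RXR, here RXRα from Rxra and RXRγ from Rxrg). The pairs bind direct repeats of a short half-site, above all repeats spaced by 5 or 2 bases, and change transcription when the ligand arrives. Rarb is a classic target of its own pathway, since retinoic acid receptors bind a repeat of this kind in its promoter and raise its transcription, and RARβ and RXRγ are the members best known from the striatum. CYP26 enzymes clear retinoic acid and close a feedback loop. H3K4me3 is a histone mark of active promoters.

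The repeat at the Rarb start is shown here because the strongest RARβ site in the Rarb window is taken in this report as its promoter site. The sequences are the 250 bases before annotated starts in RefSeq, build GRCm38.p6, in the direction of the gene. Capitals mark every half-site on either strand, taken as AGGTCA and its textbook variants GGGTCA and AGTTCA, and as GGTTCA, which joins both variants. The other 3 sequences hold half-sites without an exact repeat and are shown for contrast. Their coordinates are chr14:16575477-16575726 (minus strand) for Rarb, chr1:167618015-167618264 (plus strand) for Rxrg, chr11:98939461-98939710 (plus strand) for Rara and chr2:27709042-27709291 (plus strand) for Rxra.
Rarb start: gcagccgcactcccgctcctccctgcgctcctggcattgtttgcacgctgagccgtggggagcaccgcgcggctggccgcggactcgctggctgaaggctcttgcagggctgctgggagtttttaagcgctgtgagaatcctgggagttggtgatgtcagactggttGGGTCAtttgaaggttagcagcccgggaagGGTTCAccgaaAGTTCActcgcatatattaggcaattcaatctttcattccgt
Rxrg, start 2 in the table: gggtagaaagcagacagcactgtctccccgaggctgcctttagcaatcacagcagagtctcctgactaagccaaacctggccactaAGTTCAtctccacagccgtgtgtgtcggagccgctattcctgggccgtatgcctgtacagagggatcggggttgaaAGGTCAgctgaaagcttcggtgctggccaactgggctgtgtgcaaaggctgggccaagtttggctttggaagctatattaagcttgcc
Rara, start 3 in the table: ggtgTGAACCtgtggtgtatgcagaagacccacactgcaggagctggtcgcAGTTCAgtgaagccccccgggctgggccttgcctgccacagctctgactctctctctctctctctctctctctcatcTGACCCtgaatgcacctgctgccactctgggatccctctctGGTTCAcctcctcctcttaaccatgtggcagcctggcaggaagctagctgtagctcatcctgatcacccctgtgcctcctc
Rxra, start 2 in the table: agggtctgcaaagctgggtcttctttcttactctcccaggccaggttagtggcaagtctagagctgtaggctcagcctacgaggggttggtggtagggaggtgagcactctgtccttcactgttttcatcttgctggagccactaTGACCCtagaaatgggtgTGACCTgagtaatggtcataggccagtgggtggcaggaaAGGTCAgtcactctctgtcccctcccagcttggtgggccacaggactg

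The Rarb sequence holds the direct repeat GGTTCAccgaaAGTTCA, with 5 bases between the half-sites, on the strand of the gene from 53 to 37 bases before the start. All 5 genes matched the RefSeq table by symbol, with 10 annotated starts in all (4 for Rara, 2 each for Rxra and Rxrg, and 1 each for Rarb and Cyp26b1). Direct repeats with spacers of 1, 2 or 5 bases were sought on both strands in the 300 bases around each start, of which 50 lie after it. The Rarb repeat was the only match of these 3 kinds in the 10 windows. It rests on admitting the half-site GGTTCA, since with AGGTCA and AGTTCA only, 0 of the 5 genes had a match. With 1 mismatch over both half-sites 2 genes had one (Rarb and Rxrg), as did 6.32% of all promoter windows. In the Rxrg sequence shown, the bases before its AGGTCA make such a repeat with it, spaced by 1 base. Over all 32851 promoter windows of the table, 32 (0.0974%) held a repeat spaced by 5 bases, and 193 (0.588%) held a repeat with any of the 3 spacers. Single half-sites were common, with at least 1 in 43.7% of all windows, but only 2.93% held 3 or more. The Rarb window held 3. Among the other starts of the 5 genes, the Rara sequence shown holds 4 half-sites, the Rxra sequence 3 and the Rxrg sequence 2. For each of these 3 genes the start with the most half-sites is shown. The window at the Cyp26b1 start and 3 others held none of the half-sites. A match is a description of the letters and not a measured site. The promoter sequences are of another build than the peaks, so whether the Rarb repeat lies under the RARβ peak was not tested.

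RARβ peaks were found at 3 of the 5 loci. The Rarb window (170 kb) held 3 RARβ peaks and the Rara window (60 kb) held 2. In the Rxrg window (90 kb) there was 1 RARβ peak. No RARβ peak lay in the Rxra window (105 kb) or in the Cyp26b1 window (40 kb). The mark was found at all 5 loci, with 4 H3K4me3 peaks at Rarb, 7 at Rara, 5 at Rxra, 5 at Rxrg and 2 at Cyp26b1. Over the 465 kb of the windows the 6 RARβ peaks made 12.9 per Mb, against 4.32 per Mb of the effective genome. H3K4me3 peaks covered 13.9% of the windows, from 9.05% at Rxra to 30.0% at Rara, against 4.36% of the effective genome. The windows were chosen around genes with these peaks known, so neither value is read as an enrichment. Of the 6 RARβ peaks, 4 lie in close pairs.

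**Figure D1:**
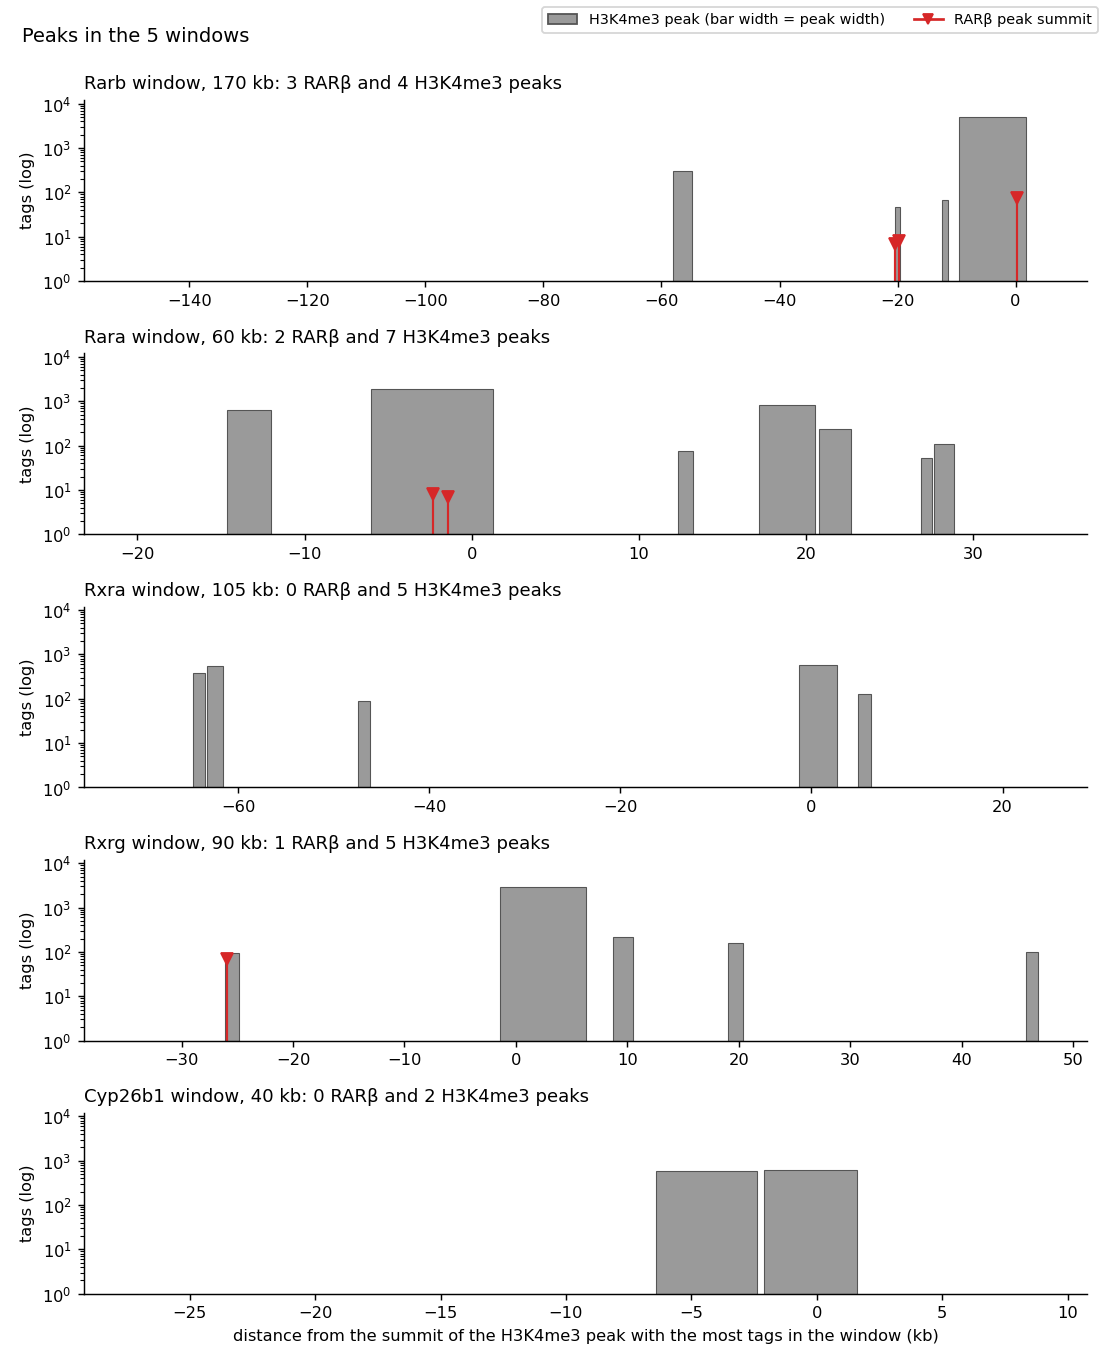
Peaks in the 5 windows, with the distance from the summit of the H3K4me3 peak with the most tags in each window (kb) on the horizontal axis and tags per peak on a logarithmic vertical axis. Grey bars are H3K4me3 peaks at their true width and red triangles are RARβ summits. At Rarb the triangle with 74 tags stands in the widest bar, at Rxrg the triangle with 71 tags stands 25.9 kb from the tallest bar, and the Rxra and Cyp26b1 windows have bars only.

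The strongest RARβ site of the Rarb window lay on chromosome 14 at 17407235 to 17408381. It was 1147 bp wide and held 74 tags, where a tag is a mapped read kept after duplicates were removed (exact Poisson 95% interval 58.1 to 92.9, which like all intervals here covers counting error only). By tags it ranked 11th of all RARβ peaks, and by score, the peak caller's p-value on a logarithmic scale, 5th. Its fold enrichment, the pileup of tags at the summit over the local background, was 123.27 and ranked 8th. The whole of the peak lay inside an H3K4me3 peak at 17398221 to 17409557. That H3K4me3 peak was 11337 bp wide with 4923 tags (exact Poisson 95% interval 4786 to 5062), more tags than 99.7% of all H3K4me3 peaks, and wider than 99.6% of them. The RARβ summit at 17408061 was 243 bp from the H3K4me3 summit at 17407818. Across all 5244 pairs of overlapping RARβ and H3K4me3 peaks the median distance between summits was 352.5 bp. At Rarb the receptor sat near the summit of the mark and toward one edge of a domain that stretched mainly to one side, with 1496 bp from the RARβ summit to the nearer edge. No gene annotation of build mm9 was used here. The name promoter site was given with the windows without coordinates, and it is applied here to the RARβ peak with the most tags.

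The authors' empirical FDR for this site was 20%. The peak caller sets the number of peaks found in the control against the number found in the ChIP library at the same score or above, and at the 5th highest score 1 control peak amounts to 20%. The same holds for the strong site at Rxrg, which was 6th by score with an FDR of 16.67%. The 4 other RARβ peaks of the windows, with far lower scores, had FDRs of 0.06% to 0.16%, since many peaks enter the estimate there.

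A pair of weak RARβ peaks lay 20.4 and 19.8 kb from the summit of the large H3K4me3 domain at Rarb. The first, at 17387268 to 17387728, had 7 tags (exact Poisson 95% interval 2.81 to 14.4) and a fold enrichment of 23.21. The second, at 17387858 to 17388357, had 8 tags and a fold enrichment of 19.35. The gap between them was 130 bp, and both overlapped the same small H3K4me3 peak at 17387372 to 17388213. This H3K4me3 peak had 47 tags over 842 bp and a fold enrichment of 3.94, fewer tags than any of the other 22 H3K4me3 peaks of the windows. The RARβ summits were 345 and 177 bp from its summit. RARβ tags at the 2 peaks summed with the promoter site to 89 for the window, of which the promoter site held 74.

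The other 2 H3K4me3 peaks of the Rarb window held no RARβ peak. One at 17395389 to 17396410 had 66 tags and lay 1.81 kb from the large domain. The other at 17349816 to 17353034 had 312 tags over 3219 bp but a fold enrichment of only 4.34, and was 34.2 kb from the nearest RARβ peak. The large domain held 92.1% of the H3K4me3 tags in peaks of this window. Just outside the window, 4.88 kb beyond its upper end, there was another RARβ peak at 17424880 to 17425484 with 28 tags and a fold enrichment of 34.0, which did not overlap H3K4me3. Within 20 kb of the windows there were 2 more RARβ peaks. They lay beyond the same end, with 8 tags at 17430462 to 17431059, overlapping H3K4me3, and 17 tags at 17431608 to 17432247, without such an overlap. Rarb is 651 kb long in RefSeq (GRCm38.p6), longer than its window, so these peaks may lie within the gene. The other 4 genes are shorter than their windows.

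RXRγ is a partner of RARβ, and the single RARβ peak of the Rxrg window was about as strong as the one at the Rarb promoter site. It lay on chromosome 1 at 169502458 to 169503770, was 1313 bp wide and held 71 tags (exact Poisson 95% interval 55.5 to 89.6). The interval overlaps widely with that of the 74 tags at Rarb. By tags this peak ranked 13th of all RARβ peaks, and by fold enrichment, at 141.76, it ranked 4th. The H3K4me3 peak it overlapped, at 169502625 to 169503876, was weak, with 97 tags (exact Poisson 95% interval 78.7 to 118) over 1252 bp and a fold enrichment of 7.09. Of all H3K4me3 peaks, 28.4% had fewer tags. The RARβ peak covered 91.5% of the H3K4me3 peak and ran 167 bp beyond it, and the summits were 433 bp apart.

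The pairs at Rarb and Rxrg had overlapping intervals for RARβ tags but H3K4me3 peaks of very different size. At Rxrg there were 73.2 RARβ tags per 100 H3K4me3 tags of the overlapped peak. This was the 3rd highest ratio of the 5244 overlapping pairs, whose median was 1.08. The Rarb promoter site had 1.50 RARβ tags per 100 H3K4me3 tags, higher than 57.4% of the pairs. The weak pair at Rarb, in its small H3K4me3 peak, had ratios of 14.9 and 17.0. The libraries differ in depth by a constant factor, which shifts every ratio alike and leaves their order. The ratio takes all tags of the H3K4me3 peak and is not corrected for its width, 11337 bp at Rarb and 1252 bp at Rxrg. Per kb of peak, the H3K4me3 peaks had 434 tags at Rarb and 77.5 at Rxrg, and the RARβ peaks 64.5 and 54.1. Much of the contrast in ratio thus goes with width.

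**Figure D2:**
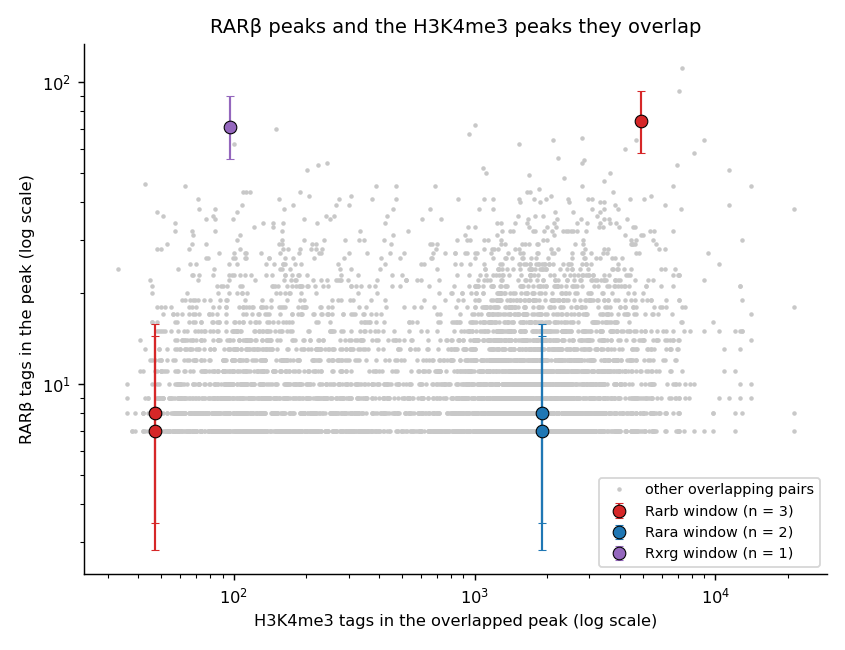
RARβ tags of a peak against the H3K4me3 tags of the peak it overlaps, both axes logarithmic, for all 5244 overlapping pairs (grey) and the 6 pairs of the windows (coloured, with exact Poisson 95% intervals of the RARβ tags). The Rxrg point at 97 H3K4me3 tags and the Rarb point at 4923 are at nearly the same height, 71 and 74 RARβ tags.

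The main marked region of the Rxrg window was elsewhere. It lay at 169527312 to 169535039, was 7728 bp wide and held 2853 tags (exact Poisson 95% interval 2749 to 2960), more tags than 97.5% of all H3K4me3 peaks. No RARβ peak overlapped it, and its summit was 25.9 kb from the summit of the RARβ peak. It held 83.3% of the H3K4me3 tags in peaks of the window. Another 3 smaller H3K4me3 peaks without RARβ followed, with 216 tags at 169537402 to 169539244, 158 tags at 169547778 to 169549085 and 100 tags at 169574523 to 169575563. The next RARβ peak beyond the window was 153 kb away from it and had 9 tags.

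Rara encodes RARα, the most widely expressed retinoic acid receptor, and its RARβ peaks were at the lower limit of the list. On chromosome 11 the peak at 98800478 to 98801033 had 8 tags (exact Poisson 95% interval 3.45 to 15.8) and a fold enrichment of 27.08. The peak at 98801501 to 98801944 had 7 tags and a fold enrichment of 23.21. No RARβ peak of the list had fewer than 7 tags, and 37.2% had 7 or 8. Both lay wholly inside the H3K4me3 peak at 98797153 to 98804458, with a gap of 468 bp between them. That H3K4me3 peak was 7306 bp wide with 1904 tags (exact Poisson 95% interval 1819 to 1991). The RARβ summits were 2320 and 1439 bp from its summit. In 88.2% of all overlapping pairs the summits were nearer than 1439 bp, so at Rara the RARβ peaks lay far from the summit of the mark in bp. The H3K4me3 peak there was wider than 98.2% of the list, whose median width was 1679 bp. It therefore allows larger distances than most H3K4me3 peaks do. The RARβ peaks at Rara had ratios of 0.420 and 0.368 RARβ tags per 100 H3K4me3 tags, the lowest of the 6 pairs.

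The fold enrichments of the 4 weak peaks rest on few tags. One tag over the genome-wide background of the RARβ library gives a fold enrichment of 3.87. The values of 23.21 and 19.35 at Rarb and of 27.08 and 23.21 at Rara are 6, 5, 7 and 6 of these steps, each within 0.01 of a whole step. Differences among these 4 values are therefore steps of 1 tag at the summit. The 2 strong sites held 145 of the 175 RARβ tags in the 6 peaks (82.9%).

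**Figure D3:**
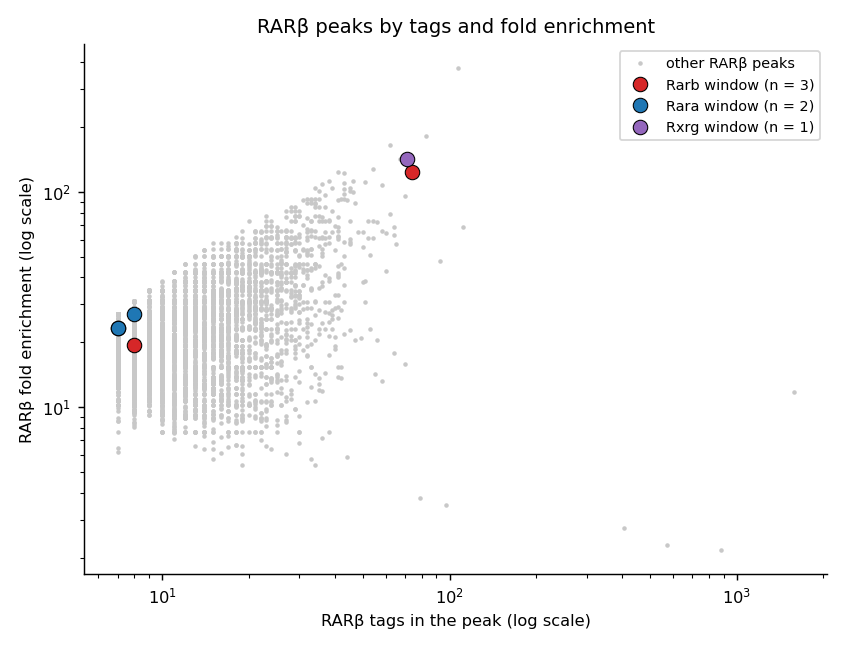
Fold enrichment against tags for all 8075 RARβ peaks (grey) and the 6 of the windows (coloured by locus), both axes logarithmic. The Rarb promoter site and the Rxrg site stand at 74 and 71 tags near the upper end, and the other 4 stand at 7 or 8 tags at the left edge, where the points at 7 tags and a fold enrichment of 23.21 from Rarb and Rara coincide.

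The other H3K4me3 peaks of the Rara window held no RARβ peak. The strongest of them, at 98820347 to 98823677, had 829 tags and a fold enrichment of 23.6, above the 16.97 of the peak that did hold RARβ. It was 18.4 kb from the nearest RARβ peak and only 268 bp from the next H3K4me3 peak at 98823946 to 98825886, which had 237 tags. On the other side of the window, the H3K4me3 peak at 98788513 to 98791176 had 634 tags. The remaining 3 were small, with 77 tags at 98815493 to 98816408, 52 at 98830038 to 98830707 and 110 at 98830797 to 98831998. The window is wider than the gene, and Rara lies between Cdc6 and Gjd3 among protein-coding genes in RefSeq. Which of these peaks belong to Rara was not determined.

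Rxra and Cyp26b1 were the loci with the mark but without a called RARβ peak. Most marked peaks of the list have none, since 13.1% of all H3K4me3 peaks shared at least 1 bp with a RARβ peak. At the mean density of the effective genome, 2.01 RARβ peaks would fall in all 5 windows together. The lack of a peak is therefore not read as a trait of these loci. At Rxra, which encodes the widely expressed partner RXRα, neighbouring H3K4me3 peaks on chromosome 2 at 27531391 to 27532618 and 27532797 to 27534472 were 178 bp apart and had 374 and 534 tags. Their fold enrichments of 31.02 and 41.16 were high, the latter above 94.3% of all H3K4me3 peaks and the highest of the 23 in the windows. The peak at 27594842 to 27598819 had 583 tags, the most at this locus, over 3978 bp, with a fold enrichment of 12.36. The others were weaker, with 91 tags at 27548671 to 27549956 and 129 tags at 27601013 to 27602344. The RARβ peak nearest to the window lay 188 kb below it, at 27331406 to 27332313, with 12 tags. The gaps from the 5 H3K4me3 peaks to the nearest RARβ peak ran from 199 to 269 kb.

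At Cyp26b1, on chromosome 6, there were 2 H3K4me3 peaks separated by 280 bp. The first, at 84532808 to 84536818, had 573 tags (exact Poisson 95% interval 527 to 622) and a fold enrichment of 5.93. The second, at 84537099 to 84540823, had 621 tags (573 to 672) and a fold enrichment of 17.75. The intervals of their tag counts overlap, while the fold enrichments at their summits were apart. The nearest RARβ peak was 101 kb above the window, at 84651305 to 84651749, with 8 tags and no H3K4me3 overlap. No peak of the RARβ list had fewer than 7 tags, and peaks were called by a p cutoff against the background. Sites with 7 or more tags over a higher background can therefore be absent too. Weaker binding at Rxra and Cyp26b1 was not detectable at this depth.

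All 6 RARβ peaks of the windows overlapped H3K4me3, with their summits inside the marked peak. The marked peaks differed in their own FDR, which was 3.36% at the Rarb promoter site and at Rara, 12.64% at the weak pair of Rarb and 17.65% at Rxrg. The latter 2 FDRs do not follow strength, since the H3K4me3 score was 63 at the weak pair and 199.1 at Rxrg. The value of 3.36% was shared by all 5 H3K4me3 peaks of the windows at the score's cap of 3100. It therefore does not rank them. Over the whole list 64.9% of RARβ peaks shared at least 1 bp with an H3K4me3 peak. The 6 peaks here, of which 4 lie in close pairs, are too few to set against that share. Of the 13 RARβ peaks of the list with at least 71 tags, which include both strong sites, 5 overlapped H3K4me3. Of the 23 marked peaks in the windows, RARβ was present at 4, against 13.1% of all H3K4me3 peaks. Among the 7 with an FDR of at most 5% it was 2, against 22.4% in the list, and among the 16 above that FDR it was 2, against 8.09%. The small marked peak at Rarb and the wide one at Rara held 2 RARβ peaks each, and 2 or more were held by 1.21% of all H3K4me3 peaks. The 4 marked peaks with RARβ spanned the whole range of H3K4me3 tags in these windows, from 47 to 4923, and ran from 3.94 to 33.68 in fold enrichment. The 19 without RARβ ranged from 52 to 2853 tags (median 237) and from 3.67 to 41.16 in fold enrichment (median 10.64). The groups overlapped in both measures, and the H3K4me3 peaks with the highest fold enrichment (Rxra) and the second most tags (Rxrg) were among those without RARβ.

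**Figure D4:**
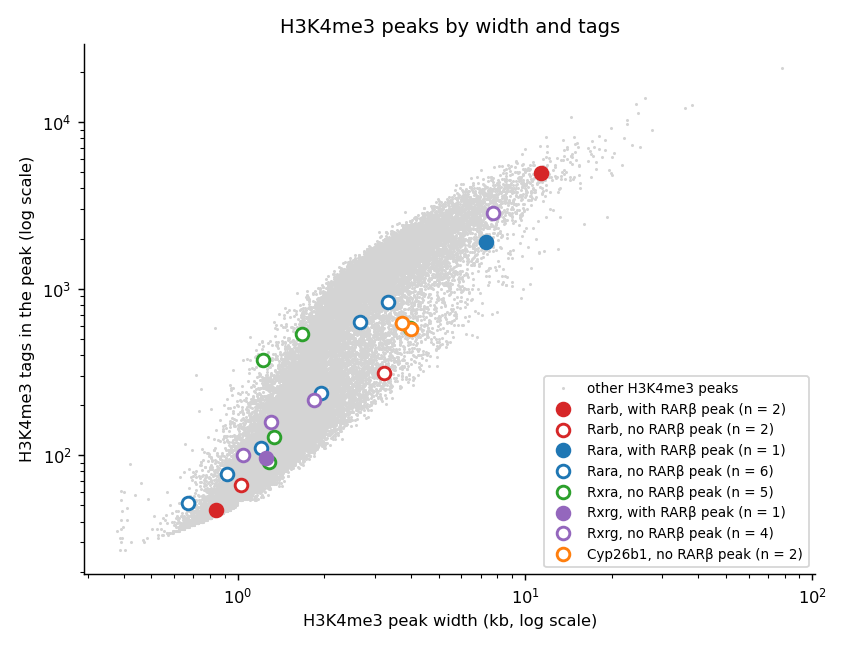
Tags against width in kb, both axes logarithmic, for all H3K4me3 peaks (grey) and the 23 of the windows (coloured by locus, filled where a RARβ peak overlaps, open where none does). The 4 filled points lie at both ends of the range, at 47 and 97 tags and at 1904 and 4923 tags, with open points between and beside them.

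Elsewhere in the genome, the overlapping pairs most like these strong sites were sought by the Euclidean distance over log2 values of RARβ tags, RARβ fold enrichment, H3K4me3 tags and H3K4me3 width, each divided by its SD over all 5244 pairs. For the Rarb promoter site the nearest pair, at a distance of 1.44, was on chromosome 4 at 45543915 to 45544885, with 43 RARβ tags in an H3K4me3 peak of 6991 bp and 3742 tags. Next, at 1.57, was a site on chromosome 17 at 79129684 to 79132066, with 64 RARβ tags in an H3K4me3 peak of 12110 bp and 4696 tags. The third, at 1.59, was on chromosome 5 at 125869785 to 125871024, with 54 RARβ tags. All 3 had fewer RARβ tags and a lower fold enrichment (62.94 to 109.47) than the Rarb site. For the Rxrg site the nearest pair, at a distance of 0.997, was on chromosome 6 at 71518469 to 71520164, with 70 RARβ tags and a fold enrichment of 95.79, in an H3K4me3 peak with 150 tags. The others were on chromosome 12 at 4095229 to 4096148, with 45 RARβ tags over 63 H3K4me3 tags, and on chromosome 15 at 25439659 to 25440521, with 43 over 117.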

How the data were processed

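Libraries were PCR-amplified and sequenced from one end, per the labels' protocols. The submitters' processing notes name CASAVA 1.8.2, Bowtie and build mm9. Peak calling was done by the authors with MACS 1.4.2 on each library alone against 1 shared control library, at a p cutoff of 1e-05 and with at most 1 tag kept per position, per the file headers. After filtering, 2237580 RARβ tags, 47461843 H3K4me3 tags and 3703580 control tags were left, per the file headers. The filter had removed 55.2% of 4994799 RARβ tags and 21.4% of 60367942 H3K4me3 tags. The control had 1.66 times the filtered tags of the RARβ library, while the H3K4me3 library had 12.8 times those of the control. Few control tags therefore stand behind the H3K4me3 background. How the peak caller scaled the libraries to each other was not determined.

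The deposited tag count of each peak is a raw whole number. Fold enrichment, a ratio to the local background, was deposited as the peak caller gave it. The deposited score equals the peak p-value's log10 times -10, recognised from the column order since its name was lost. The FDR was deposited in percent. Summits were placed by counting from the peak start, and positions are from 1 in mm9. Peaks were matched by at least 1 shared bp. Distances between peaks run from edge to edge. Intervals are exact Poisson at 95%, and tags amplified by PCR are not independent molecules. Overlap and motif searches were tested on simulated data. RefSeq tables (GRCm38.p6) gave gene names, lengths and promoter sequences only, and no coordinates were converted between builds.

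The windows, members and lists were chosen with earlier results of these data known. The text names every RARβ peak of the windows, the H3K4me3 peaks that hold one and all that do not, and the 3 pairs elsewhere most like each strong site. Alternatives used a score of at least 100, an FDR of at most 5%, other overlap rules, wider windows and other half-sites. The software was scipy 1.17.1, pandas 2.3.3, numpy 2.4.6 and matplotlib 3.10.9, run under Python 3.11.15.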

Additional observations from a re-analysis of the deposited data

How the results depend on the processing

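With 1 library per antibody no value can be checked against a replicate. No paired analysis was possible because each antibody has 1 library and no result comes from a test. With a score of at least 100 in both lists, 2 RARβ peaks were left in the windows, the strong sites at Rarb and Rxrg, both overlapping H3K4me3, and 2 H3K4me3 peaks held a RARβ peak. With an FDR of at most 5% in both lists, 7 H3K4me3 peaks were left, 2 RARβ peaks overlapped one and 1 H3K4me3 peak held any. This filter removes the strong RARβ sites at Rarb and Rxrg, whose FDRs are 20% and 16.67%. With only the H3K4me3 peaks filtered in this way, 3 of the 6 RARβ peaks overlapped the mark. The direct repeat was found at 0 of the 5 genes with the half-sites AGGTCA and AGTTCA only, because the Rarb repeat begins with GGTTCA. With 1 mismatch over both half-sites it was found at 2 (Rarb and Rxrg), and 6.32% of all promoter windows then held one. Of 23 alternatives for counts, 14 stayed within 1.5 times the main count. Among these, the RARβ count went from 6 to 4 with the FDR filter, which loses both strong sites, and to 9 with windows widened by 20 kb. Both changes are at the bound of 1.5. The rules on summits and on 50% overlap returned the main counts unchanged, so the tally is not a measure of stability. The Rarb promoter site had 64.5 tags per kb, a value in another unit than its 74 tags that says nothing about stability. The 4 RARβ peaks with 7 or 8 tags are at the limit of detection at this depth.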
